A study of Homo sapiens with 6 samples.

Results

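The genes of the SWI/SNF, ISWI, CHD and INO80-type chromatin remodellers were followed through an R-loop map of a neuroblastoma line. Members were chosen by symbol from the RefSeq gene table: every protein-coding gene whose symbol begins with SMARC (apart from SMARCAD1) or INO80 or consists of CHD and a single digit, together with ARID1A, ARID1B, ARID2, PBRM1, BRD7, BRD9, DPF1, DPF2, DPF3, ACTL6A, ACTL6B, SS18, BPTF, EP400, SRCAP, RUVBL1 and RUVBL2. The rule gave 43 of 20033 protein-coding genes. It uses symbols and no measured value, but it was chosen with earlier results of these data known. R-loops were mapped by DRIP-seq, in which the S9.6 antibody pulls DNA-RNA hybrids out of restriction-digested nucleic acids and the recovered DNA is sonicated and sequenced. SH-SY5Y cells, an established human neuroblastoma line, carried the lentiviral hairpin shT2 (3 samples) or shNC3 (3 samples). The protocol gives 1 lentiviral vector for both hairpins and describes puromycin selection of stable knockdown cells, with no separate account of the shNC3 cells. TDP-43 knockdown is the subject of the series. Which hairpin targets it is not spelled out in the labels, so every difference is given as shT2 relative to shNC3, with shT2 read as the knockdown from its name. Separate infections or cultures for the 3 samples of each hairpin are not mentioned in the labels, so p-values measure the spread between these samples only, which may be technical.

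Chromatin remodellers are ATP-driven machines that slide, evict or exchange nucleosomes. SWI/SNF complexes open chromatin at enhancers and promoters, ISWI complexes space nucleosomes, CHD proteins act alone or within complexes such as NuRD, and INO80, SRCAP and EP400 exchange or deposit the histone variant H2A.Z. Many of these genes are long, broadly expressed, and mutated in cancers or neurodevelopmental disorders. An R-loop is a DNA-RNA hybrid with a displaced DNA strand, and such structures are common where a GC-rich gene start is transcribed and toward gene ends.

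Each sample came with 1 list of MACS2 peaks on hg38, holding 49068, 50971 and 50821 peaks in shT2 replicates 1 to 3 and 45390, 42717 and 45014 in shNC3 replicates 1 to 3. The value followed here is the covered length, which is the number of bases under peaks within a gene's span plus 2 kb on each side. It measures the reach of called peaks and carries no information on pulldown strength. Unless a value is called unscaled, it was multiplied by a factor per sample that makes the total covered length of all 6 lists equal. Library depth moved with the hairpin: the depth recovered from the peak statistics was 3.08 to 3.46 fragments per base in shT2 and 1.65 to 1.79 in shNC3, a ratio of means of 1.90. Markers of cell state moved with the hairpin too. Of 10 noradrenergic neuroblastoma markers, 9 carried peaks in all 6 samples, with summed covered lengths of 99.6 to 109.8 kb in shT2 and 90.0 to 98.8 kb in shNC3, and TH had no peak in any sample. By the limma fit used for the members, 4 of the 10 were longer in shT2 and 0 shorter. The 8 mesenchymal markers summed to 12.8 to 13.5 kb in shT2 and 98.1 to 110.0 kb in shNC3, with 6 of the 8 shorter and 0 longer in shT2, where YAP1, PRRX1 and CD44 had no peak. For the counts of genes, starts, partner genes and regions and for the sums along the genes, the values with every list thinned to equal depth are given beside the result. Thinning drops whole peaks and leaves the kept peaks at their called width, so any effect of depth on peak width remains in those values. The part of cell state in the results was not tested.

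The promoters of the members with a listed start whose start window differed are shown first, apart from SMARCA5, because the later results turn on whether a difference lies at the start of a gene or along its body. A start window is the 2001 bp centred on the outermost start listed for the gene, and 8 members whose start is not listed (CHD5, SMARCC1, ACTL6A, CHD7, ARID2, SMARCC2, BPTF and CHD6) were measured within 1 kb of either end of the span instead. The sequences are from RefSeq (GRCh38.p14) for 35 matched members, read 5′ to 3′ on the gene's strand from 250 bases before to 50 bases after the listed start, with runs of at least 4 G in capitals. CHD4 (chr12:6606402-6606701, minus strand) and CHD8 (chr14:21437226-21437525, minus strand) were wholly under peaks in the 3 samples of 1 hairpin and in none of the other, in opposite directions.
CHD4: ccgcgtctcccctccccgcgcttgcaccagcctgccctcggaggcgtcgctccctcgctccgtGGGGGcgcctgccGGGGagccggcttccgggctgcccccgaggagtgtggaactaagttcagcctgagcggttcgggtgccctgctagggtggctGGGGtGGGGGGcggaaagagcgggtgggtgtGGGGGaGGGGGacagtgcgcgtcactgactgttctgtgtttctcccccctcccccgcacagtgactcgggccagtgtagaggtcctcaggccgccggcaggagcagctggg
CHD8: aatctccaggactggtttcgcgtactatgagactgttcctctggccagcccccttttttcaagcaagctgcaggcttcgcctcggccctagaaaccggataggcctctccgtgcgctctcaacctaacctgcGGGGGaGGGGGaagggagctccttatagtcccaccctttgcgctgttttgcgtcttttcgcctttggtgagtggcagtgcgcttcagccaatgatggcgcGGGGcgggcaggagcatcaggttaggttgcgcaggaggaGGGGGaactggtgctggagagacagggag

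The CHD4 stretch was covered over 0 bp in each shT2 sample and over all 300 bp in each shNC3 sample. The CHD8 stretch was covered over all 300 bp in each shT2 sample and over 0 bp in each shNC3 sample. Both hold several G runs, 6 in CHD4 and 4 in CHD8, and their GC content is 71.7% and 59.7%. CHD2 (chr15:92900074-92900373, plus strand) also lay in a start window with longer coverage in shT2. Little of the printed stretch was under peaks, 32, 0 and 32 bp in shT2 and 0 bp in each shNC3 sample, so most of the difference in its start window lay outside these bases. It has the lowest CpG count of the 8 promoters shown, 3, and 7 G runs.
CHD2: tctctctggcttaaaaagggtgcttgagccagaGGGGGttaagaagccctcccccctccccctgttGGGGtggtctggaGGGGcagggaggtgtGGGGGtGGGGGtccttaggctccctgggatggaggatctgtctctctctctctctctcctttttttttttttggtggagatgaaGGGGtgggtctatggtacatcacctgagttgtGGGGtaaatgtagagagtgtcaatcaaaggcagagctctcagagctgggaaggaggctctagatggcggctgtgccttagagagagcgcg
The promoters of SMARCA2 (chr9:2015097-2015396, plus strand), CHD9 (chr16:53054741-53055040, plus strand) and CHD1 (chr5:98928958-98929257, minus strand) lay in start windows with shorter coverage in shT2. Peaks covered the SMARCA2 stretch over 0, 300 and 300 bp in shNC3 and 0 bp in each shT2 sample. They covered the CHD9 stretch over 138 bp in shNC3 replicate 3 and 0 bp in the other samples.
SMARCA2: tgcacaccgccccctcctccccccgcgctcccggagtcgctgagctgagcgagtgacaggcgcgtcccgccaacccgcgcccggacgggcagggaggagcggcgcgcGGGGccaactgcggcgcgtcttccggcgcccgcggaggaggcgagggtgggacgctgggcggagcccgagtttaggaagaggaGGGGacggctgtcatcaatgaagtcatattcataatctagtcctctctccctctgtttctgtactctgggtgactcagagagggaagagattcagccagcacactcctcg
CHD9: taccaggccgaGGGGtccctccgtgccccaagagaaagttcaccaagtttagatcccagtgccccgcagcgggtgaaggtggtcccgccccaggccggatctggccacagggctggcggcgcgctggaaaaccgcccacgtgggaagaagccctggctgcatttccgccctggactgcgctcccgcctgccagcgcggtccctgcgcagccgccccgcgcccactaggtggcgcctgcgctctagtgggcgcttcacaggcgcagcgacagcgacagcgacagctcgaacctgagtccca
CHD1: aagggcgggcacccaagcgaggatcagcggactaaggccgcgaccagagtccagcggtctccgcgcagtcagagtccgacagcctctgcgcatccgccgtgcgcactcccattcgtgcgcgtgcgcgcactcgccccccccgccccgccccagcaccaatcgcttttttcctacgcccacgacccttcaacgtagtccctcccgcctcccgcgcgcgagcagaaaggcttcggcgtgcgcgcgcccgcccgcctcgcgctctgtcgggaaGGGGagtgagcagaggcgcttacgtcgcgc

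The stretch of CHD1 was under peaks over all 300 bp in every sample, so its difference lay outside these bases. For comparison, the ARID1A promoter (chr1:26695765-26696064, plus strand) was under peaks over all 300 bp in every sample and the DPF1 promoter (chr19:38229646-38229945, minus strand) over 0 bp in every sample, at a GC content of 78.0% and 75.3%.
ARID1A: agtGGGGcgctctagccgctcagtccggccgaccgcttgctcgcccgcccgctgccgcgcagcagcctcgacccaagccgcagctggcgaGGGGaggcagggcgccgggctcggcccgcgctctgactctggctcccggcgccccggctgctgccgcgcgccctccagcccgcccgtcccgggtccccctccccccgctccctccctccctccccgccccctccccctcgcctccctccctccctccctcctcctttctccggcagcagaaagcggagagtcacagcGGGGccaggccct
DPF1: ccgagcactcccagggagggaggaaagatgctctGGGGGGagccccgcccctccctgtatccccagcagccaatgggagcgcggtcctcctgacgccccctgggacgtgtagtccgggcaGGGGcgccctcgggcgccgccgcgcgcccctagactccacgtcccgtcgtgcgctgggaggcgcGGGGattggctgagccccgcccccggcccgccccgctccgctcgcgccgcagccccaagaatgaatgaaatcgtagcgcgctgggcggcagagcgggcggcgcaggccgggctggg
A run GGGG on the gene's strand was present in 30 of 35 member promoters (85.7%), against 80.5% of the 15842 promoters in the table, and a run CCCC, the same motif on the other strand, in 34 of 35 (97.1%) against 79.7%. Peaks touched 13 of the 35 member promoters in all 6 samples (37.1%, against 18.0% of all promoters) and none of the 6 samples in 9 (25.7%, against 59.2%). The median GC content was 70.7% in the 13 and 64.7% in the 9. These shares describe the windows and were not tested.

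Coverage of the remodeller genes was more often longer than shorter in shT2. Of the 43 members, 41 had a peak in at least 3 samples and were tested, 39 of them with a peak in all 6. DPF3 and INO80C, subunits of SWI/SNF and of INO80, had no peak in any sample. In a limma fit over all 11769 tested genes, 19 of the 41 members were longer in shT2, 7 were shorter and 15 were not called at an adjusted p of 0.05. Among all tested genes 51.3% were called, with 24.1% longer and 27.2% shorter, so the members' share of longer genes (46.3%) lay above that background and their share of shorter genes (17.1%) below it. The median log2 difference was 0.17 over the members and -0.08 over all genes. The scaled shT2 and shNC3 values did not overlap in 32 of 41 members, against 65.0% of all tested genes. The scale factors themselves set the hairpins apart (0.908 to 0.977 in shT2 and 1.007 to 1.129 in shNC3). INO80B, at 4270 bp in every sample before scaling, thus counts among the 32. Summed over members, the covered length was 562.6, 560.1 and 564.8 kb in shT2 and 460.4, 458.0 and 454.0 kb in shNC3. With the lists thinned to equal depth, 18 members were longer (21.8% of all genes) and 5 shorter (24.2% of all genes). Without scaling, 24 were longer (27.0% of all genes) and 4 shorter (17.4% of all genes). The count of shorter members also fell to 4 without shNC3 replicate 2 (21.0% of all genes) and without shNC3 replicate 3 (20.8%). With only peaks of at least 5-fold enrichment, 12 members were longer (18.2% of all genes).

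**Figure D1:**
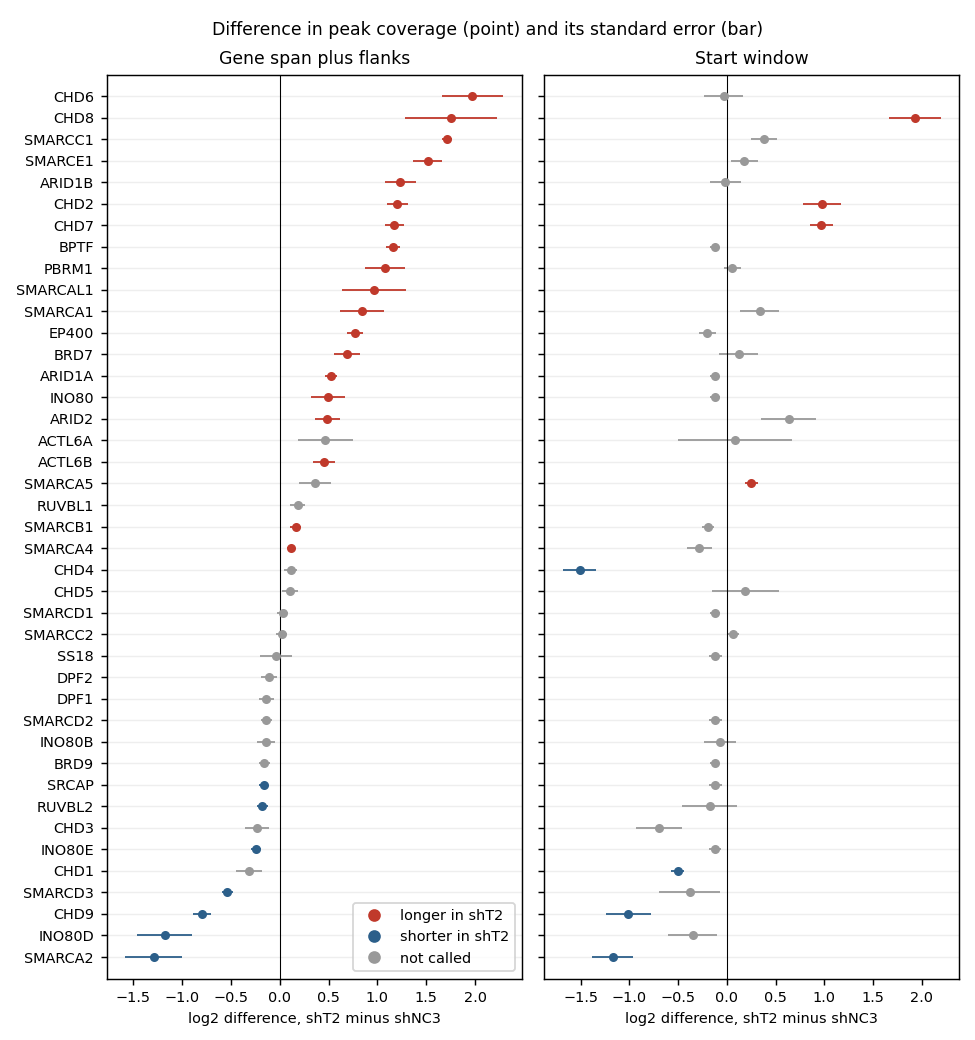
The left panel plots the log2 difference in gene coverage and the right panel that in start window coverage (x axis, shT2 minus shNC3) for each tested remodeller gene, as a point with its standard error from limma (bar), red where longer in shT2, blue where shorter and grey where not called. Of 41 genes, 19 are red and 7 blue in the left panel, and of 36 start windows 4 are red and 4 blue in the right panel.

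The ATPases of SWI/SNF, which burn ATP to move nucleosomes and of which a complex holds either one, had very unlike coverage. SMARCA4 (BRG1; chr19:10961030-11062273) had the longest coverage of all members, 68.8, 63.4 and 68.2 kb in shT2 and 63.2, 59.5 and 62.0 kb in shNC3, which is 66.8% and 55.4% of its span and flanks before scaling. All 3 shT2 values were above the highest shNC3 value, by a small margin. The log2 difference of 0.12 (SE 0.04, limma adjusted p = 0.0492) was past the threshold only just: it was lost without shNC3 replicate 1, 2 or 3 and without shT2 replicate 1 or 3 (0.09 to 0.14, adjusted p 0.0524 to 0.147). SMARCA2 (BRM; chr9:2015347-2193620) had no peak in any shT2 sample and 0.388, 1.16 and 0.734 kb in shNC3 (limma adjusted p = 0.00866). Because 1 group is at 0, no fold is given.

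Among the core subunits of SWI/SNF, which form the body of the complex around the ATPase, 4 of 12 tested genes were longer in shT2, 1 was shorter and 7 were not called (33.3% longer and 8.33% shorter, against 24.1% and 27.2% of all tested genes). SMARCC1 (BAF155), a scaffold subunit, was covered over 39.7, 41.7 and 39.7 kb in shT2 and 11.4, 12.6 and 11.9 kb in shNC3. The mean was 40.3 ± 1.14 kb against 11.95 ± 0.60 kb (SD, n = 3 each), a 3.38-fold ratio (log2 difference 1.71, SE 0.05, limma adjusted p = 4.35e-06), with between 40 and 43 peaks per sample in shT2 and 17 or 18 in shNC3. SMARCE1 (BAF57), the HMG-domain subunit, was covered over 5.25, 5.19 and 5.96 kb in shT2 and 1.30, 1.54 and 1.95 kb in shNC3 (log2 difference 1.52, SE 0.15, limma adjusted p = 0.000227). Both genes had every shT2 sample well above every shNC3 sample. ACTL6B, the actin-like subunit of neuronal BAF complexes, was covered over 11.6, 11.5 and 12.1 kb against 10.3, 7.72 and 7.64 kb (0.45, SE 0.11, limma adjusted p = 0.0128). Its dividing-cell counterpart ACTL6A was not called (0.47, SE 0.28, limma adjusted p = 0.198), and its groups overlapped. SMARCB1 (SNF5), the tumour suppressor lost in rhabdoid tumours, was covered over 32.6, 31.6 and 30.4 kb against 26.4, 27.7 and 30.1 kb (0.17, SE 0.06, limma adjusted p = 0.0426). That call was lost without shNC3 replicate 1 or 2 and without shT2 replicate 1, 2 or 3 (0.12 to 0.19, adjusted p 0.0523 to 0.126). SMARCD3 (BAF60C), linked to heart, muscle and neural BAF complexes, went the other way, with 15.6, 17.4 and 15.1 kb in shT2 and 23.6, 22.9 and 23.8 kb in shNC3 (-0.53, SE 0.06, limma adjusted p = 0.000393). SMARCD1, SMARCD2, SMARCC2, SS18, DPF1 and DPF2 were not called, with log2 differences from -0.14 for SMARCD2 to 0.03 for SMARCD1.

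The subunits that set which SWI/SNF complex is formed were longer in shT2 in 5 of 6 cases, with 0 shorter, against 24.1% longer among all tested genes and 36.6% among those of at least 50 kb. ARID1A, the DNA-binding subunit of canonical BAF and a frequent tumour suppressor, was covered over 31.2, 27.3 and 27.6 kb in shT2 and 20.5, 19.1 and 19.7 kb in shNC3 (log2 difference 0.53, SE 0.06, limma adjusted p = 0.000474). Its paralog ARID1B, a main cause of Coffin-Siris syndrome, was covered over 11.1, 17.9 and 12.6 kb against 5.41, 5.72 and 5.37 kb (1.23, SE 0.16, limma adjusted p = 0.000741). In both paralogs the lowest shT2 sample exceeded the highest shNC3 sample, and shT2 replicate 2 stood above the other shT2 samples in ARID1B. PBRM1 (BAF180), the bromodomain subunit of PBAF, was covered over 10.9, 12.8 and 12.6 kb against 5.27, 3.94 and 7.65 kb (1.08, SE 0.20, limma adjusted p = 0.00403). ARID2, another PBAF subunit, was covered over 3.90, 4.64 and 4.28 kb against 3.23, 2.51 and 2.99 kb (0.49, SE 0.13, limma adjusted p = 0.0149). Its call was lost without shT2 replicate 2 (0.43, adjusted p = 0.0575), and with no flank the difference was 0.06 (adjusted p = 0.753), so the difference was not seen within the span itself. BRD7, the other PBAF bromodomain subunit, was covered over 4.90, 4.74 and 4.72 kb against 2.54, 2.49 and 3.42 kb (0.69, SE 0.13, limma adjusted p = 0.00441). Of its covered length, 62.1% in shT2 and 68.5% in shNC3 lay in the neighbour ADCY7, and with no flank the call was lost (1.31, adjusted p = 0.0629). BRD9, the bromodomain subunit of non-canonical BAF, was not called (-0.16, SE 0.06, limma adjusted p = 0.0547).

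Of the ISWI genes and SMARCAL1, 3 of 4 were longer in shT2 and 0 shorter (24.1% and 27.2% of all tested genes, 36.6% and 20.8% of those of at least 50 kb). All but SMARCA5 span at least 50 kb. The calls of SMARCA1 and SMARCAL1 were lost when single samples were left out. BPTF, the largest subunit of the NURF complex and a reader of histone methylation, was covered over 32.3, 28.3 and 28.2 kb in shT2 and 13.9, 12.7 and 12.3 kb in shNC3, a 2.28-fold ratio (log2 difference 1.16, SE 0.07, limma adjusted p = 3.54e-05). SMARCA1 (SNF2L), the ISWI ATPase of NURF, was covered over 2.30, 2.25 and 1.97 kb against 1.43, 0.902 and 0.721 kb (0.84, SE 0.22, limma adjusted p = 0.0169). That call was lost at equal depth (0.35, adjusted p = 0.263) and without shT2 replicate 1 (0.80, adjusted p = 0.0593) or 2 (0.81, adjusted p = 0.0567). SMARCAL1, an annealing helicase that protects stalled replication forks, was covered over 0.883, 0.665 and 1.32 kb against 0.301, 0.479 and 0 kb (0.97, SE 0.33, limma adjusted p = 0.0418). Its call was lost without shNC3 replicate 1 or 3 and without shT2 replicate 1, 2 or 3 (0.70 to 1.10, adjusted p 0.0623 to 0.148). SMARCA5 (SNF2H), the ISWI ATPase of most cells, was covered over 3.04, 3.42 and 3.37 kb in shT2 and 2.56, 2.95 and 1.89 kb in shNC3. The SMARCA5 groups did not overlap, but the difference was not called (0.36, SE 0.16, limma adjusted p = 0.101).

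The CHD genes went both ways, with 4 of 9 longer in shT2, 1 shorter and 4 not called (44.4% longer and 11.1% shorter, against 24.1% and 27.2% of all tested genes). All but CHD3 and CHD4 span at least 50 kb, and of all tested genes of that length 36.6% were longer and 20.8% shorter. CHD6 was covered over 4.00, 5.22 and 6.54 kb in shT2 and 1.01, 0.439 and 1.61 kb in shNC3, the largest log2 difference of any member (1.97, SE 0.31, limma adjusted p = 0.00189). CHD8, a leading autism gene, was covered over 11.1, 8.63 and 10.6 kb against 6.45, 1.11 and 2.24 kb (1.76, SE 0.47, limma adjusted p = 0.0172). The shNC3 samples of CHD8 were far apart, and the difference was 2.33 without shNC3 replicate 1 and 1.28 without shNC3 replicate 2. CHD2, mutated in childhood epilepsies, was covered over 16.2, 15.6 and 15.8 kb against 5.50, 6.89 and 7.57 kb (1.204, SE 0.11, limma adjusted p = 0.000151). CHD7, the CHARGE syndrome gene, was covered over 9.41, 8.47 and 10.2 kb against 4.21, 3.91 and 3.49 kb (1.17, SE 0.10, limma adjusted p = 0.00012). In these genes no shT2 sample fell to the level of any shNC3 sample. With only peaks of at least 5-fold enrichment, the calls of CHD6 (1.05, adjusted p = 0.0819) and CHD2 (1.62, adjusted p = 0.103) were lost. CHD9 was covered over 4.598, 4.20 and 3.72 kb in shT2 and 7.95, 7.10 and 7.72 kb in shNC3, and was the CHD gene with shorter coverage in shT2 (-0.80, SE 0.10, limma adjusted p = 0.000528).

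The NuRD ATPases CHD3, CHD4 and CHD5 were not called over their whole length. CHD4 was covered over 21.6, 21.2 and 20.1 kb in shT2 and 20.0, 20.5 and 17.6 kb in shNC3, with overlapping groups (log2 difference 0.11, SE 0.07, limma adjusted p = 0.181). The difference was 0.10 for CHD5, a neuronal CHD gene of the neuroblastoma-deleted arm of chromosome 1 (adjusted p = 0.32), and -0.23 for CHD3 (adjusted p = 0.156). CHD1, which binds methylated histone H3 at active genes, was at -0.31 and also not called (adjusted p = 0.0869).

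The INO80, SRCAP and EP400 complex genes held 4 tested genes of 8 with shorter coverage in shT2, 2 with longer coverage and 2 not called. Of all tested genes 27.2% were shorter and 24.1% longer. EP400, the ATPase of the TIP60 complex, was covered over 20.8, 22.98 and 21.3 kb in shT2 and 11.7, 12.01 and 14.0 kb in shNC3 (log2 difference 0.77, SE 0.08, limma adjusted p = 0.000253). INO80, the ATPase that names its complex, was covered over 9.86, 7.14 and 7.31 kb against 5.31, 7.02 and 4.58 kb (0.49, SE 0.17, limma adjusted p = 0.0473). The lowest shT2 and highest shNC3 values of INO80 nearly met, and its call was lost at equal depth (0.41, adjusted p = 0.081), without shNC3 replicate 1 or 3 and without shT2 replicate 1, 2 or 3 (0.35 to 0.57, adjusted p 0.0557 to 0.126). INO80D was covered over 0.298, 1.00 and 0.653 kb against 1.73, 2.06 and 2.30 kb (-1.18, SE 0.28, limma adjusted p = 0.0102). INO80E was covered over 10.5, 10.5 and 10.99 kb against 12.6, 12.9 and 12.7 kb (-0.24, SE 0.05, limma adjusted p = 0.00583), of which 36.8% in shT2 and 34.4% in shNC3 lay in the neighbours HIRIP3 and DOC2A. SRCAP, the ATPase that deposits H2A.Z, was covered over 26.5, 26.5 and 28.5 kb against 29.1, 31.6 and 30.6 kb (-0.16, SE 0.05, limma adjusted p = 0.0259). RUVBL2, an AAA+ ATPase shared by these complexes, was covered over 17.1, 17.6 and 19.3 kb against 20.2, 21.1 and 19.9 kb (-0.18, SE 0.06, limma adjusted p = 0.0343).

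The small differences in this group depended on the scaling and the depth. Without scaling, INO80E (-0.09, adjusted p = 0.174), SRCAP (-0.01, adjusted p = 0.876) and RUVBL2 (-0.03, adjusted p = 0.737) were not called, and SRCAP turned to 0.08 when weaker peaks than 5-fold were left out (adjusted p = 0.268). At equal depth SRCAP (-0.10, adjusted p = 0.128) and RUVBL2 (-0.14, adjusted p = 0.15) were not called, nor were they with the same number of peaks per sample (-0.09 and -0.13). SRCAP also lost its call without shNC3 replicate 2 or 3 and shT2 replicate 1 or 2 (-0.16 to -0.14, adjusted p 0.0678 to 0.0857), and RUVBL2 without any of the shNC3 samples and shT2 replicate 1 or 2 (-0.20 to -0.14, adjusted p 0.0568 to 0.117). INO80D kept its call under each of these settings. RUVBL1, the partner of RUVBL2, was not called (0.18, adjusted p = 0.0796), and 37.6% of its covered length in shT2 lay in SEC61A1 and EEFSEC. INO80B was covered over 4270 bp in every sample before scaling, 35.3% of it in WBP1.

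**Figure D2:**
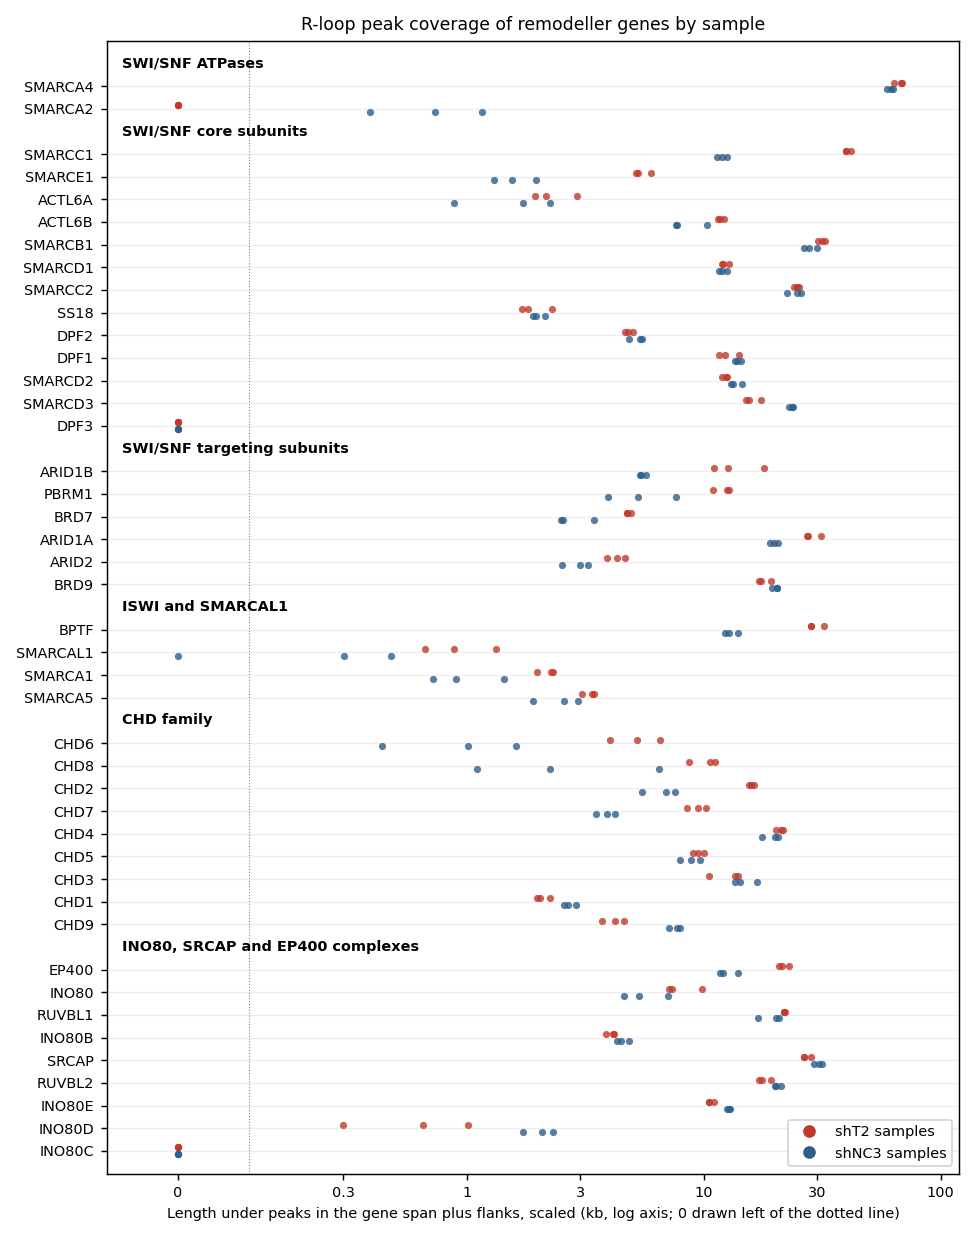
Each point is the covered length of 1 sample (x axis, kb on a log axis, scaled to total covered length, with 0 drawn left of the dotted line) for each remodeller gene (y axis, by group), red for shT2 and blue for shNC3. SMARCC1 lies at 39.7 to 41.7 kb in shT2 and 11.4 to 12.6 kb in shNC3, SMARCA2 has no red point above 0, and DPF3 and INO80C lie at 0 in all 6 samples.

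Longer coverage was called mostly in the long members. Of the 24 tested members whose span is at least 50 kb, 17 were longer in shT2 and 3 shorter (70.8% and 12.5%), with a median log2 difference of 0.61. Of all 3865 tested genes of that length, 36.6% were longer and 20.8% shorter, with a median of 0.22. Of the 17 tested members under 50 kb, 2 were longer (SMARCE1 and ACTL6B) and 4 shorter (11.8% and 23.5%, median -0.14), and of all genes of that length 18.1% were longer and 30.3% shorter. The 13 tested members of at least 100 kb were all called, 11 longer and 2 shorter (SMARCA2 and CHD9), where 37.8% of all tested genes of that length were longer and 21.7% shorter. At equal depth 10 of these 13 were longer, 2 shorter and 1 not called, and the share of all such genes was not computed. At equal depth, 16 of the 24 members of at least 50 kb were longer and 3 shorter (32.6% and 20.5% of all such genes), and 2 of the 17 members under 50 kb were longer and 2 shorter (16.6% and 26.1%). Across the 41 members, which share their 6 libraries, the log10 of the span and the log2 difference had a Pearson correlation of 0.33 and a Spearman correlation of 0.41. The 50 kb division was chosen after the values were seen.

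**Figure D3:**
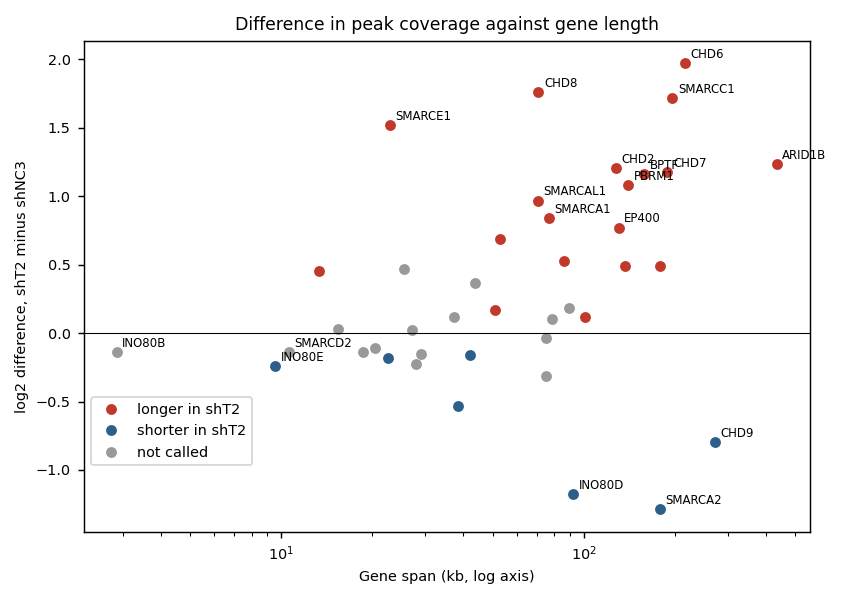
Each point is a tested remodeller gene, placed by its span (x axis, kb on a log axis) and its log2 difference in gene coverage (y axis, shT2 minus shNC3), with colours for longer, shorter and not called. Of the 13 genes of at least 100 kb, 11 are longer in shT2, and CHD9 and SMARCA2 lie below 0.

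At gene starts calls went both ways. Of 36 members whose start window was tested, 4 were longer in shT2 and 4 shorter (11.1% each), where 7.03% of all tested windows were longer and 16.4% shorter. At equal depth 4 were longer and 6 shorter (6.43% and 15.1% of all windows), the added ones being CHD3 (-1.12, adjusted p = 0.0379) and INO80D (-0.68, adjusted p = 0.0491). With the same number of peaks per sample 4 were longer and 5 shorter (6.95% and 16.0%). With stricter peaks, at a q-value of at most 0.0001, 11 were shorter (35.1%), and within 2 kb of the start 7 were shorter (24.3%). Without shNC3 replicate 3 there were 2 longer (5.73% of all windows), and likewise without shT2 replicate 1, 2 or 3 (2.28%, 2.33% and 2.23%). Without shNC3 replicate 1, 2 or 3 there were 2 shorter (7.79%, 6.98% and 7.9%). Of the 19 genes with longer coverage, the start window was longer in 3 (CHD8, CHD2 and CHD7), not called in 14 and not tested in 2. The CHD7 window takes in both ends of its span, so its call does not place the difference at the start. The windows of 21 of the 35 members with a listed start were covered in all 6 samples and those of 4 in none, and in 10 the covered length was identical in all 6. The scaling alone gives a window covered equally in every sample a negative value (the scale factors put the hairpins 0.16 apart on the log2 scale), so window lengths are printed unscaled. Without scaling the same 8 windows were called.

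The CHD4 window was covered over 306, 686 and 335 bp in shT2 and 1889, 2001 and 2001 bp in shNC3, the largest loss at a start (log2 difference -1.51, SE 0.17, limma adjusted p = 0.00219), although the gene as a whole was not called. Its listed start lies inside the annotated span, and in shT2 the first peaks began downstream of the printed promoter. The CHD8 window was the reverse, with 2001, 1947 and 1768 bp against 0, 0 and 379 bp (1.93, SE 0.27, limma adjusted p = 0.00401). The listed start of CHD8 also lies inside its span. CHD7, measured at both ends of its span, had 2256, 2024 and 2212 bp against 800, 834 and 650 bp (0.97, SE 0.11, limma adjusted p = 0.00239). A region with peaks only in shT2 (chr8:60867884-60870012) lay across the end of CHD7 with the higher coordinate. CHD2 had 698, 419 and 430 bp in shT2 and none in shNC3 (0.98, SE 0.19, limma adjusted p = 0.0134), a call lost without any one shNC3 sample (adjusted p 0.0561 to 0.0592). SMARCA5 had 1940 bp in every shT2 sample and 1329, 1404 and 1427 bp in shNC3 (0.25, SE 0.07, limma adjusted p = 0.0414). Leaving out shNC3 replicate 1 or 3 or any shT2 sample ended that call (0.20 to 0.28, adjusted p 0.0688 to 0.148). The CHD1 window was wholly covered, 2001 bp, in every shNC3 sample and over 1270, 1614 and 1380 bp in shT2 (-0.51, SE 0.07, limma adjusted p = 0.00406). SMARCA2 had 385, 711 and 704 bp in shNC3 and none in shT2 (-1.17, SE 0.21, limma adjusted p = 0.0103), and CHD9 had 346, 348 and 817 bp in shNC3 and none in shT2 (-1.01, SE 0.23, limma adjusted p = 0.0227). The CHD9 call was lost without any one shT2 sample (adjusted p 0.0794 to 0.0811).

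Along the genes, the added coverage lay in the interior and at the far end. Over the 34 members with a listed start and a span longer than both 2 kb windows, unscaled coverage within 2 kb of the start summed to 50.9, 51.8 and 49.8 kb in shT2 and 50.9, 49.8 and 52.1 kb in shNC3, with overlapping groups. More than 2 kb from both ends it summed to 337.5, 361.3 and 334.9 kb in shT2 and 280.6, 248.2 and 266.2 kb in shNC3, a ratio of means of 1.30. Every shT2 sum was above every shNC3 sum. Within 2 kb of the far end the sums were 59.4, 63.8 and 60.3 kb in shT2 and 51.9, 44.4 and 50.1 kb in shNC3, a ratio of 1.25, also 1.25 at equal depth. With the lists thinned to equal depth the interior sums were 319.1, 342.0 and 322.5 kb against 279.9, 248.2 and 264.3 kb, a ratio of 1.24, and the start sums were 50.2 ± 0.91 kb against 50.9 ± 1.11 kb (SD, n = 3 each). After scaling, the start sums were 49.15, 47.0 and 48.6 kb in shT2 and 51.2, 56.25 and 54.3 kb in shNC3, without overlap. Mean scaled start coverage was lower in shT2 in 23 members, higher in 8 and equal in 3. The scaled interior sums were 325.7, 328.0 and 327.0 kb in shT2 and 282.4, 280.2 and 277.7 kb in shNC3. All 5143 protein-coding genes of at least 50 kb with a listed start had a like interior ratio, 1.33 as deposited and 1.23 at equal depth, at the far end 1.47 and 1.41, and at the start 0.92 and 0.89. Over all 13935 such genes of any length that holds both windows the ratio was 1.15 in the interior, 1.13 at the far end and 0.94 at the start. At equal depth these ratios were 1.085, 1.10 and 0.91.

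By distance, unscaled peaks covered 42.3 ± 0.80% of the first 2 kb after the start in shT2 and 41.4 ± 1.42% in shNC3 (SD, n = 3 each), averaged over members. From 2 to 10 kb the cover was 30.9 ± 0.90% and 26.1 ± 1.47%, from 10 to 20 kb 25.1 ± 1.35% and 21.0 ± 1.11%, and from 20 to 50 kb 14.4 ± 0.48% and 12.3 ± 0.72%. In each of those 3 stretches the lowest shT2 sample was above the highest shNC3 sample. At equal depth the values of those stretches were 30.1 ± 0.84% and 26.1 ± 1.499%, 24.4 ± 1.55% and 21.0 ± 1.11%, and 13.6 ± 0.48% and 12.2 ± 0.72%, again without overlap. In the 2 kb before the start the cover was 32.4 ± 0.71% and 33.3 ± 0.45% as deposited, with overlapping groups. At equal depth it was 31.9 ± 0.48% in shT2 and 33.3 ± 0.45% in shNC3, with every shT2 sample below every shNC3 sample.

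**Figure D4:**
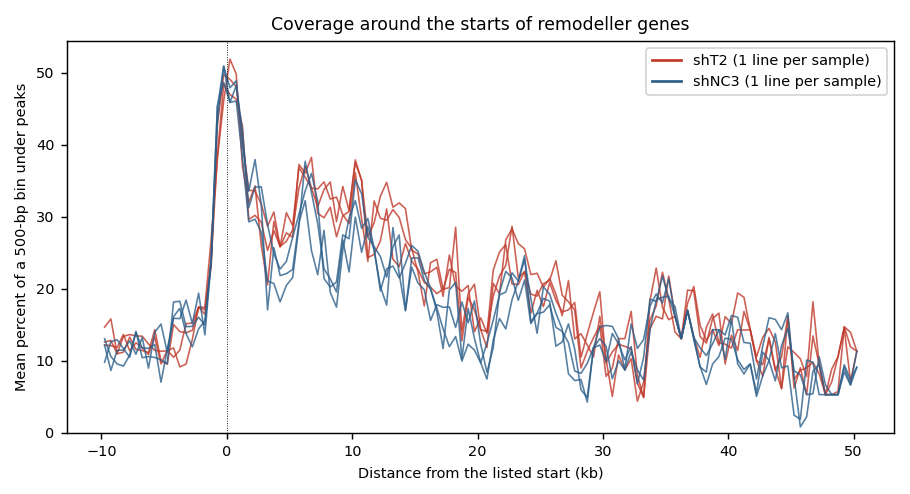
The mean percent of each 500-bp bin under peaks (y axis, unscaled) is drawn against the distance from the listed start (x axis, kb, in the direction of the gene), as 1 line per sample, red for shT2 and blue for shNC3, over the members that reach each distance. The lines run together around the start, and from 2 to 10 kb the shT2 samples average 30.1% to 31.9% and the shNC3 samples 25.0% to 27.8%.

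Peaks of all samples merged into 511 regions within the members' spans and flanks. Of these, 42 (8.22%) were present in all 3 shT2 samples and in no shNC3 sample, against 5.87% of all 75758 regions of the genome, and 4 (0.783%) were found in every shNC3 list but no shT2 list, against 2.86%. Regions present in all 6 samples numbered 127 (24.9%, against 20.6%). With lists at equal depth there were 28 of the first kind and 5 of the second among 458 regions (6.11% and 1.09%, against 4.42% and 3.59% of all regions). Restricting the lists to 5-fold enriched peaks or stronger left 20 and 4 among 271 (7.38% and 1.48%, against 5.44% and 4.05%). The count of 4 was 7 or 8 without shT2 replicate 3 or any 1 shNC3 sample. The 42 lay in 17 members, with 10 in SMARCC1 and 5 each in BPTF and CHD2. Of the 23 in members with a listed start, 18 lay in the interior, 2 within 2 kb of the start and 3 within 2 kb of the other end.

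The 5 of these regions with the longest coverage lay in 5 genes already described. In SMARCE1 (chr17:40628017-40631911) peaks covered 3566, 3504 and 3895 bp in the shT2 samples, 17.9 kb into the gene. In ARID1A (chr1:26722185-26725319) they covered 2553, 2765 and 2362 bp, 27.7 kb from the start. In CHD7 (chr8:60867884-60870012) they covered 1846, 2129 and 2129 bp across the end of the span with the higher coordinate. The other two lay past the far end of their genes. They were in CHD8 (chr14:21381396-21384044), with 1413, 2122 and 2091 bp, toward the neighbour SUPT16H, which held 5.26% of the covered length of CHD8 in shT2 and none in shNC3, and in ARID1B (chr6:157211792-157213805), with 1977, 2014 and 1117 bp. The 4 regions found only with shNC3 were shorter. They lay in SRCAP (chr16:30701582-30702504, 673 ± 289 bp), at the CHD9 start (chr16:53054062-53054878, 504 ± 271 bp), in ARID1A (chr1:26735964-26736650, 484 ± 178 bp) and in INO80 (chr15:40982399-40982813, 359 ± 48.3 bp; SD, n = 3 each). ARID1A and INO80 thus held regions of both kinds.

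**Figure D5:**
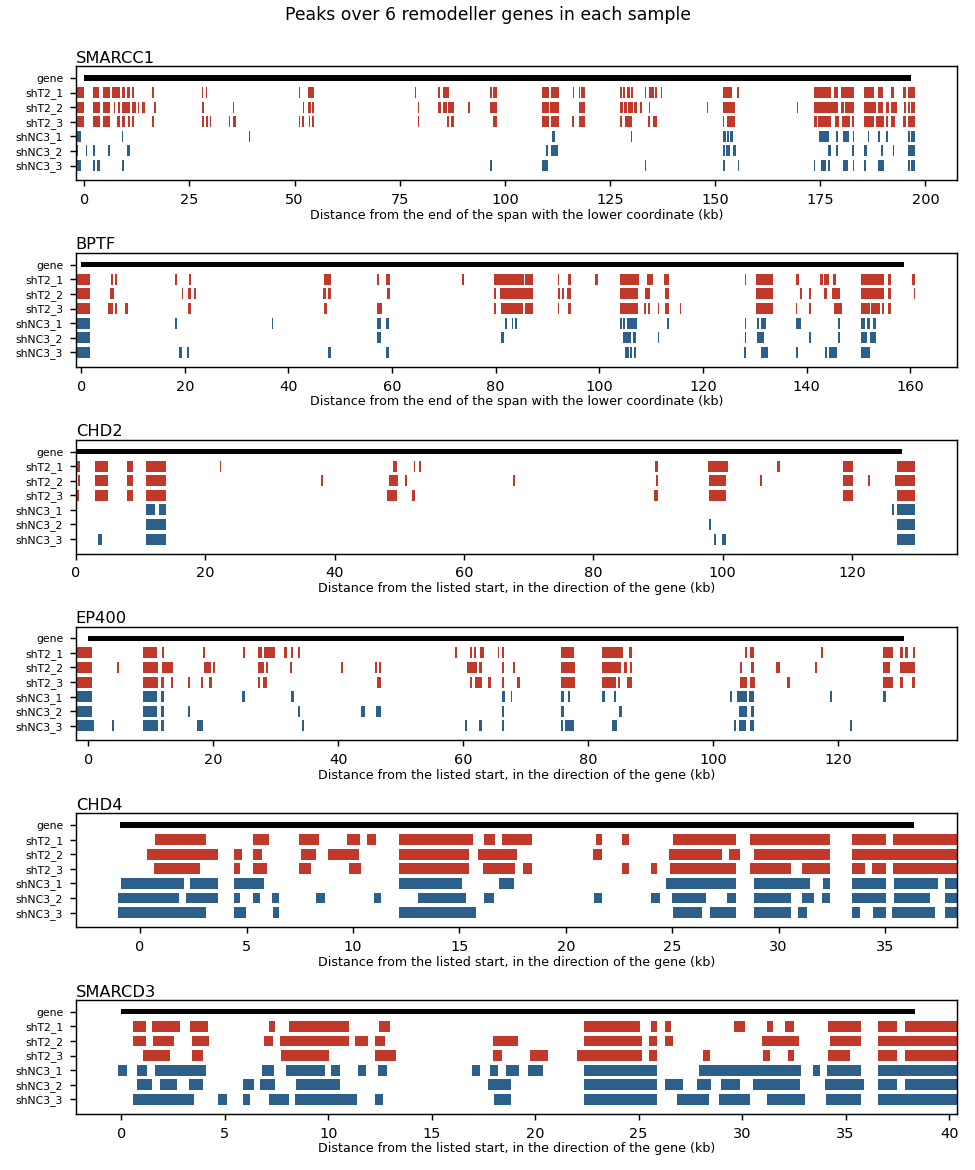
Peaks of each sample (coloured bars, red for the 3 shT2 and blue for the 3 shNC3 samples) are drawn along 6 remodeller genes (black bar, the gene span), with distance in kb on the x axis. SMARCC1 shows 40 to 43 peaks per shT2 sample and 17 or 18 per shNC3 sample, CHD2 and EP400 gain peaks along their length, CHD4 starts its peaks later in shT2, and SMARCD3 has longer coverage in shNC3.

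The strongest peak touching SMARCA4 had a fold enrichment over local background, as the authors' peak caller gave it, of 40.1 to 42.7 in shT2, within the top 0.271% to 0.322% of each list, and of 23.7 to 28.7 in shNC3, within the top 1.62% to 2.42%. In SMARCC1 the strongest peak reached 22.6 to 26.6 in shT2, within the top 1.28% to 1.85% of each list. In shNC3 it reached 7.17 to 12.4, within the top 9.2% to 25.9%. In RUVBL2, whose coverage was shorter in shT2, it lay within the top 0.324% in every list. SMARCA2 and INO80D, the members with the lowest coverage among those called shorter, had no peak above 7.17. Fold values rank peaks within a list and were not compared between hairpins by a test.

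Other subunits and relatives of these complexes were also more often longer than shorter in shT2. Of 57 partner genes, 54 were tested, and 22 were longer in shT2 and 6 shorter (40.7% and 11.1%, median log2 difference 0.26), against 24.1%, 27.2% and -0.08 over all tested genes. At equal depth 21 were longer and 4 shorter (21.8% and 24.2% of all genes). The partner genes were not split by span. Of all tested genes, 36.6% of those of at least 50 kb and 18.1% of those under 50 kb were longer. The part of gene length in the partner counts was not tested. BCL11B and CECR2 had no peak and ERCC6 had peaks in too few samples. The 4 longer genes with the smallest p were MTA3 (1.27, limma adjusted p = 1.28e-05) and GATAD2B (1.21, 1.29e-05), both of NuRD, the helicase gene SMARCAD1 (1.78, 4.65e-05) and RBBP4 (0.74, 0.000146), a histone chaperone of NuRD and other complexes. GATAD2B was covered over 34.4, 31.8 and 30.9 kb in shT2 and 13.2, 14.1 and 13.9 kb in shNC3, and MTA3 over 20.8, 20.6 and 18.8 kb against 8.04, 8.12 and 7.96 kb. The 4 shorter genes with the smallest p were ZNHIT1 of SRCAP (-0.52, limma adjusted p = 0.00179), MRGBP of TIP60 (-0.50, 0.00269), SS18L1 of neuronal BAF (-0.20, 0.00518) and MCRS1 of INO80 (-0.26, 0.0117). Without scaling SS18L1 (-0.05, adjusted p = 0.43) and MCRS1 (-0.11, adjusted p = 0.14) were not called, and only 2 partner genes were shorter (17.4% of all genes).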

How the data were processed

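DRIP-seq peaks of 6 SH-SY5Y samples (shT2 and shNC3, 3 each) were used. Per the submitters' processing notes, Bowtie2 2.4.4, SAMtools and MACS2 2.2.6 were run on hg38. Each deposited list holds, by its narrowPeak layout, the peak position, an integer score, a fold enrichment over local background (a linear ratio), and the −log10 p-value and −log10 q-value, as the authors' peak caller wrote them. The control used for calling is not given in these sources. Lists were called per sample, and the deposited q-value reaches 0.01.

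Bases under merged peaks were summed per protein-coding gene of the RefSeq table (GRCh38.p14) over the span plus 2 kb, scaled to the mean total covered length, and limma 3.58.1 (R 4.3.3) was run on log2(bp + 500) (trend and robust, no covariates, Benjamini-Hochberg over all genes covered in at least 3 samples). The log2 scale understates changes of short coverage. Depth was recovered from each peak's fold and p-value, and lists were thinned to equal depth as an alternative. The thinning removed whole peaks and did not change the ends of the peaks it kept. Other alternatives were the scaling, the pseudocount, stricter peaks, the windows, the gene filter, plain limma, the replicate number as a block and each sample left out. Values in every sample are given for called members without overlap between groups and for SMARCA2, SMARCA4, SMARCA5, CHD4, INO80, SRCAP and EP400, and for up to 4 partner genes per direction by p and up to 5 regions per direction by covered length. Sequences are RefSeq's. The members, lists and rules were chosen with earlier results of these data known. A 3 against 3 exact permutation test cannot go below p = 0.1 and was not used. The code was tested on simulated data.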

Additional observations from a re-analysis of the deposited data

How the results depend on the processing

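Of the 19 longer and 7 shorter members, the counts stayed within 1.5 times under most settings, with these exceptions. Without scaling 4 members and 2 partner genes were shorter. With peaks of at least 5-fold enrichment 12 members were longer, 20 regions were found only with shT2, and SRCAP reversed to 0.084 (adjusted p = 0.268). At starts, genes covered in all 6 samples gave 1 longer and 2 shorter (2.36% and 9.79% of all windows, from 7.03% and 16.4%). A q-value of at most 0.0001 gave 11 shorter (35.1% of all windows, from 16.4%), and windows of 2 kb gave 7 shorter (24.3%). The filter on all 6 samples leaves out windows at 0 in any sample, among them CHD2, CHD8, SMARCA2 and CHD9. CHD7 and SMARCA5 were covered in all 6 samples, yet only 1 longer call was left. Causes were otherwise not tested. Leaving out 1 sample gave 14 to 18 longer and 4 to 8 shorter members, 2 to 4 longer and 2 to 3 shorter starts, 20 to 23 longer and 4 to 6 shorter partner genes, and 47 to 63 shT2-only and 4 to 8 shNC3-only regions, where presence in 2 of 2 samples is the easier rule. In those fits 18.6% to 24.4% of all genes were longer and 20.8% to 24.1% shorter. Of all start windows 2.23% to 6.14% were longer and 6.98% to 14.6% shorter. With the replicate number as a block (replicate block), 17 members were longer and 6 shorter, 3 starts longer and 4 shorter, and 22 partner genes longer and 5 shorter. With that block 24.0% of all genes were longer and 24.4% shorter, and 6.91% of all start windows were longer and 16.2% shorter. The numbers are not a pairing by the labels, and samples of the same number did not deviate together (correlations of -0.02, -0.06 and -0.01). SMARCB1, SMARCAL1, RUVBL2 and the SMARCA5 start lost their calls with that block. Depth differed between hairpins, and covered length cannot show signal strength.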

Other observations

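Many peak ends lay at restriction sites. The labels' protocol names BsrGI (TGTACA), EcoRI (GAATTC), HindIII (AAGCTT), SspI (AATATT) and XbaI (TCTAGA), whose sites read the same on both strands. Within the 300-bp promoter windows of 15842 genes, 2111 of 8050 peak ends (26.2%) lay within 10 bp of such a site, where 1.79% of the bases do. In the member promoters 6 of 23 peak ends did, in INO80D and SMARCD3 at BsrGI sites and in CHD2 at an XbaI site. No other part of the genome was searched for sites. None of the 13 member promoters with a peak in all 6 samples held one of the 5 sites, and 4 of the 9 with no peak did (9.63% and 22.3% over all genes with a peak in all 6 samples and with none).

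Several regions had the same length in every list that held them. A region past the far end of SMARCA4 was 13399 bp long in all 6 samples, and one at the far end of BRD9 was 12022 bp long in all 6. A CHD2 region (chr15:93018870-93020519) was 1650 bp in each shT2 sample and had no peak in shNC3, and another (chr15:92908270-92909181) was 912 bp in each shT2 sample and had no peak in shNC3. Whether their ends lie at restriction sites was not tested.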
